A study of Homo sapiens with 24 samples.

Results

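Drug-tolerant persister (DTP) cells of HCC827, a human lung cancer line, were set against Parental cells of that line, both carrying an empty vector (EV). The comparison took the 3 DTP EV and 3 Parental EV columns of the deposited gene table, which are 6 of the 24 samples of the series. HCC827 is an established line of lung adenocarcinoma that carries an activating mutation of EGFR. DTP EV and Parental EV cells shared the label of a wild-type genotype and the empty vector. The labels give no agent, dose or time by which the DTP cells were made, and osimertinib, an inhibitor of mutant EGFR, is named in the series' design for other samples. DTP OC and Parental OC cells, which overexpressed the circular RNA cATF6, had 3 libraries each, shared no library with the EV groups and are set beside them where stated. All 12 libraries carried names of 1 library series. Every group is the same single line, and the labels do not say whether replicates were separate cultures, so the p-values below measure the spread between these libraries, which may be technical. In bulk RNA, fewer cells that express a gene and less of its RNA per cell cannot be told apart.

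In cells that depend on mutant EGFR, the receptor drives RAS, RAF, MEK and ERK, and ERK induces immediate early transcription factors, the phosphatases that switch it off again and the genes of cell cycle entry. Persisters are the small share of a tumour cell population that outlives a targeted drug without a resistance mutation, cycles slowly or not at all and can grow again once the drug is gone. The coactivator YAP and its DNA-binding partners of the TEAD family respond to matrix and cytoskeletal tension and have been tied to the survival of lung cancer cells under EGFR inhibition.

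The DTP EV libraries were not alike. DTP EV 1 lay apart from DTP EV 2 and 3: the chi-square per degree of freedom of their counts was 54.3 and 53.7, against 16.6 between DTP EV 2 and 3 and 5.23 to 7.17 among Parental EV libraries. Among genes with a mean of at least 100, 450 and 417 differed over 2-fold between DTP EV 1 and DTP EV 2 or 3, against 59 between DTP EV 2 and 3 and 45 to 64 among Parental EV libraries. Results are therefore given with and without DTP EV 1. Depth was 30075330 to 33700976 counts per library in DTP EV and 34000009 to 40152649 in Parental EV, so every DTP EV library was the shallower. Genes of the mitochondrial genome took 4.19 to 5.35% of the counts in DTP EV and 3.65 to 3.90% in Parental EV, and cytosolic ribosomal protein genes 3.92 to 4.72% in DTP EV and 4.90 to 5.21% in Parental EV.

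**Figure D1:**
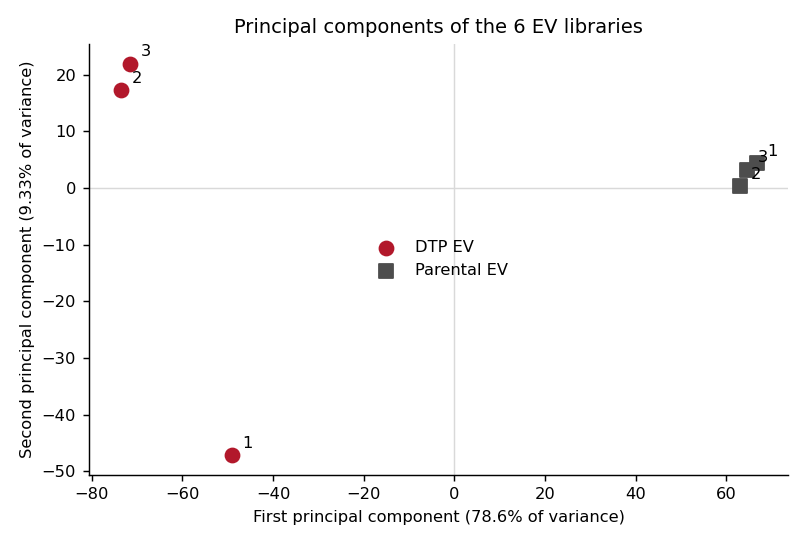
Each point is 1 library, placed by the first (x) and second (y) principal component of log2 scaled counts, without units, with DTP EV as circles and Parental EV as squares. The first component held 78.6% of the variance and put the DTP EV libraries at -73.7 to -49.1 and the Parental EV libraries at 63.0 to 66.7, and the second held 9.33% and set DTP EV 1 (-47.1) apart from DTP EV 2 (17.2) and DTP EV 3 (22.0).

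Levels below are recovered counts after TMM scaling, the trimmed mean of M-values (scaled counts). A change is the difference of mean log2(scaled count + 1), DTP EV minus Parental EV, with its standard error (SE) from limma, which understates the change of low genes. A gene is called at a Benjamini-Hochberg adjusted p under 0.05. Of 14158 genes tested, 8131 were called (57.4%), 4022 higher (28.4%) and 4109 lower (29.0%) in DTP EV, and the median change was -0.01. Without DTP EV 1, 9602 were called (67.8%), 4716 higher and 4886 lower, and 8048 of the 8131 calls were made again with the same sign. A change of at least 2-fold was called for 1327 higher and 1202 lower genes, and the DTP EV and Parental EV libraries did not overlap for 2521 of these 2529. The counts of gene lists below are to be read against these shares, 28.4% higher and 29.0% lower (33.3% and 34.5% without DTP EV 1), and the size of a change says more than the call. Each of the 181 called genes named here was called with the same sign without DTP EV 1.

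Lung epithelial markers were lower in sum. The 18 on the list summed to 337181 to 377161 scaled counts in DTP EV, all below the 386987 to 392701 in Parental EV, with 4 called higher and 10 lower and a median of -0.26. Without DTP EV 1 the calls numbered 5 and 10, with 2 higher without any 1 of the other libraries and 6 lower without any 1 Parental EV library. NKX2-1, the lineage factor of lung epithelium, had 2939, 4076 and 3885 in DTP EV, against 2525, 2595 and 2590.3 in Parental EV. SFTPB, a surfactant protein of alveolar cells, was low in both groups (0, 0 and 2.27 in DTP EV, against 15.3, 24.3 and 26.8 in Parental EV). It was called lower (log2 -3.92, adjusted p = 0.00151, and -4.53 without DTP EV 3). SFTPB passed the filter only through its Parental EV counts, so it could not have been called higher. Fibroblast markers are given with the matrix genes. Of 12 endothelial markers, 4 could be tested, with 2 called higher and 1 lower, EMCN was at 0 in all 6 libraries and the list summed to 272 to 516 scaled counts in DTP EV and 175 to 204 in Parental EV. Of 14 leukocyte markers, 6 could be tested, none was called higher and 3 lower, CD2, CD3E, MS4A1 and TYROBP were at 0 and the list summed to 13650 to 22559 in DTP EV and 24356 to 25215 in Parental EV. Of 12 neuroendocrine markers, 4 could be tested, with 1 called higher and 2 lower, NEUROD1, INSM1, GRP and CALCA were at 0 and the list summed to 1495 to 1705 in DTP EV and 3841 to 3963 in Parental EV. The 1 higher call was lost without any 1 library other than Parental EV 2, and 1 leukocyte marker was called higher without DTP EV 1. The part of these markers in the results below was not tested.

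Secreted and matrix proteins were among the widest rises of well-expressed genes. ANKRD1, a nuclear ankyrin-repeat protein and a YAP target, had 2912, 4986 and 5349 scaled counts in DTP EV 1 to 3, against 54.01, 39.9 and 32.5 in Parental EV 1 to 3 (log2 6.66, SE 0.27, adjusted p = 4.03e-06). CAVIN2, a caveolar coat protein, had 735, 1435 and 1308 scaled counts in DTP EV 1 to 3, against 16.3, 32.98 and 16.2 in Parental EV 1 to 3 (log2 5.69, SE 0.35, adjusted p = 2.18e-05). VTCN1, the immune checkpoint ligand B7-H4, had 6002, 10339.5 and 10075 scaled counts in DTP EV 1 to 3, against 231, 220.4 and 207 in Parental EV 1 to 3 (log2 5.28, SE 0.20, adjusted p = 3.3e-06). All DTP EV libraries of these 3 genes stood far above every Parental EV library. Other wide rises were COL12A1 (log2 5.27), EPB41L3, a membrane skeleton protein (4.82), SLC16A9, a transporter of the monocarboxylate family (4.68), THBS1 (4.57), OLFML2A, an extracellular olfactomedin-like protein (4.47), and ANOS1, a secreted matrix protein (4.43, 5.02 without DTP EV 1). In absolute scaled counts, which grow with gene length as well as with expression, the largest gains included FN1, FLNA, CYR61, KRT7 and OS9, a lectin of ER-associated degradation (log2 0.72).

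Among the widest falls were immediate early, inflammatory and mucosal genes. IL1A, an epithelial alarm cytokine, had 71.7, 73.3 and 79.4 scaled counts in DTP EV 1 to 3, against 4637, 4368 and 4329.9 in Parental EV 1 to 3 (log2 -5.87, SE 0.08, adjusted p = 1.53e-07). STC1, a secreted glycoprotein hormone, had 75.7, 56.6 and 60.1 scaled counts in DTP EV 1 to 3, against 3481, 3609 and 3435 in Parental EV 1 to 3 (log2 -5.76, SE 0.12, adjusted p = 5.69e-07). PTGS1, the constitutive cyclooxygenase, had 199, 79.6 and 85.05 scaled counts in DTP EV 1 to 3, against 5648, 5861 and 5674 in Parental EV 1 to 3 (log2 -5.68, SE 0.32, adjusted p = 1.55e-05). The DTP EV values of these genes were a small fraction of the Parental EV values in every library, and for PTGS1 the level in DTP EV 1 was the highest of the DTP EV libraries. The readthrough entry NME1-NME2 also fell (log2 -7.53, -6.10 without DTP EV 1 and -10.39 without DTP EV 2), but it shares reads with both of its genes, and its call was lost without DTP EV 3 (adjusted p = 0.0685) or any 1 Parental EV library (0.0509 to 0.0539).

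**Figure D2:**
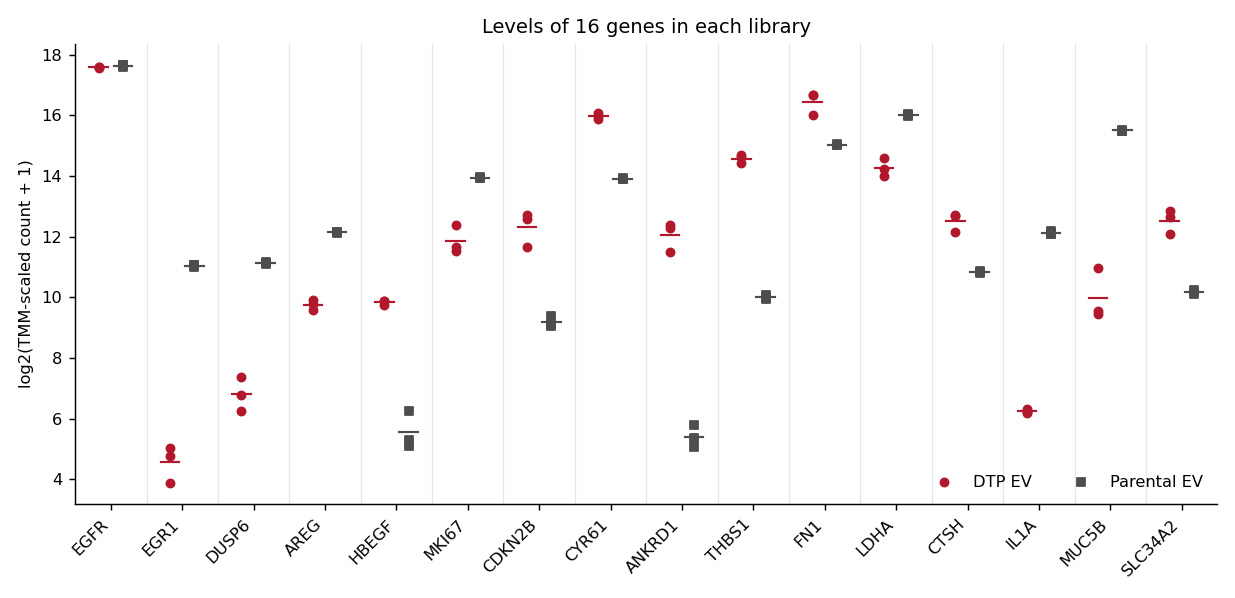
Levels of 16 genes as log2(scaled count + 1) in each library, with DTP EV as circles on the left and Parental EV as squares on the right of each column and a bar at the group mean (n = 3 each). EGFR stood near the same height in both groups, EGR1, DUSP6, AREG, MKI67, LDHA, IL1A and MUC5B lay lower in DTP EV, and HBEGF, CDKN2B, CYR61, ANKRD1, THBS1, FN1, CTSH and SLC34A2 lay higher in DTP EV.

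EGFR, the receptor that drives this line, had 194683, 197912 and 198216 scaled counts in DTP EV 1 to 3, against 204719, 207380.3 and 198366 in Parental EV 1 to 3 (log2 -0.05, SE 0.08, adjusted p = 0.654). The difference did not pass the test, although all DTP EV values lay below all Parental EV values. ERK output genes, the transcriptional readout of the pathway below it, were mostly lower: of 25 members tested, 2 were called higher and 17 lower, and 2 and 21 without DTP EV 1, with a median of -1.33 (-1.48 without DTP EV 1), and higher calls numbered 1 without DTP EV 3 and 1 without any 1 Parental EV library. DUSP6, the ERK phosphatase, had 164, 110.0 and 75.98 scaled counts in DTP EV 1 to 3, against 2303, 2243 and 2172 in Parental EV 1 to 3 (log2 -4.32, SE 0.25, adjusted p = 1.7e-05). The transcription factors of the PEA3 family fell as well, ETV4 to 204, 104 and 113 in DTP EV, against 1359, 1402 and 1248 in Parental EV (log2 -3.31, SE 0.24) and ETV1 too (log2 -4.52, and -5.13 without DTP EV 1). Further ERK targets that fell were DUSP5, an ERK phosphatase of the nucleus (log2 -4.21, SE 0.17), and PHLDA1, a pleckstrin-homology domain protein (log2 -1.90, SE 0.14). EPHA4, an ephrin receptor on this list, went the other way (log2 4.10, SE 0.18).

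Of the immediate early and AP-1 genes, the first to be transcribed after ERK activation, 23 were tested, 2 were called higher and 15 lower, and 3 and 17 without DTP EV 1, with a median of -0.78, and higher calls numbered 1 without any 1 Parental EV library. EGR1, a zinc finger factor, had 31.9, 13.6 and 26.1 scaled counts in DTP EV 1 to 3, against 2135, 2119 and 2052 in Parental EV 1 to 3 (log2 -6.48, SE 0.28, adjusted p = 5.39e-06). FOS, a subunit of AP-1, had 43.8, 38.8 and 29.5 scaled counts in DTP EV 1 to 3, against 533, 574 and 569.7 in Parental EV 1 to 3 (log2 -3.89, SE 0.18, adjusted p = 6.35e-06). No DTP EV library of either gene came near the Parental EV range. JUNB (log2 -2.10, SE 0.09), another AP-1 subunit, and MAFF (log2 -2.30, SE 0.33), a small basic leucine zipper factor, fell too, while FOSL2, also an AP-1 subunit, rose (log2 0.33, SE 0.06). DUSP1, a phosphatase of stress-activated kinases, rose (log2 0.55, SE 0.06), and MYC, a factor that ERK signalling stabilises, was not called (log2 -0.09, SE 0.12, adjusted p = 0.546, with a change of 0.06 without DTP EV 2). The promoter of EGR1 is shown because serum response elements, which hold CArG boxes, are the textbook link between ERK and immediate early transcription. It is the 300 bases around the gene's start, mostly before it, is RefSeq's for GRCh38.p14 (chr5:138465229-138465528, plus strand) and has its CArG boxes (CC, then 6 of A or T, then GG, either strand) in capitals.
EGR1: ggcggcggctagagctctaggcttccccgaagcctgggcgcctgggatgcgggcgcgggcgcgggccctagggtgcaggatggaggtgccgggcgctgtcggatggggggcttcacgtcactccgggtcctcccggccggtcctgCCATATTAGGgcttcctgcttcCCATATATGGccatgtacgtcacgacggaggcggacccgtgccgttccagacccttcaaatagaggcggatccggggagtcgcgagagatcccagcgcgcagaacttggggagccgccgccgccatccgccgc
Of 19 immediate early promoters in the RefSeq table, 2 held a CArG box (10.5%), against 351 of all 27305 promoters (1.29%), as a description of these windows only.

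Ligands of the ERBB receptors divided. AREG, amphiregulin, had 955, 771 and 869 scaled counts in DTP EV 1 to 3, against 4489.9, 4559 and 4587 in Parental EV 1 to 3 (log2 -2.40, SE 0.08, adjusted p = 2.6e-06). EREG, epiregulin, fell too (log2 -3.13, SE 0.21). HBEGF, the heparin-binding EGF-like ligand of EGFR and ERBB4, had 861, 933 and 936 scaled counts in DTP EV 1 to 3, against 74.4, 38.2 and 33.5 in Parental EV 1 to 3 (log2 4.28, SE 0.28, adjusted p = 2.89e-05). HBEGF thus stood above the Parental EV range in every DTP EV library, whereas AREG and EREG stood below it. ERBB2, the preferred partner of the other ERBB receptors, rose to 8769, 11224 and 12170.2 in DTP EV, against 5778, 5789.9 and 5711 in Parental EV (log2 0.88, SE 0.11). In the whole ERBB list, 16 were tested, 4 were called higher and 7 lower, and 6 and 7 without DTP EV 1, with a median of -0.07.

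Other receptor tyrosine kinases and their ligands rose more often than they fell: of 31 members tested, 18 were called higher and 8 lower, and 18 and 8 without DTP EV 1, with a median of 0.50. AXL, the TAM receptor often raised in EGFR inhibitor tolerance, had 496, 298 and 318 scaled counts in DTP EV 1 to 3, against 68.3, 80.7 and 82.2 in Parental EV 1 to 3 (log2 2.22, SE 0.22, adjusted p = 0.00015). GAS6, the ligand of AXL, had 1678, 1057 and 994 scaled counts in DTP EV 1 to 3, against 84.6, 59.9 and 96.5 in Parental EV 1 to 3 (log2 3.92, SE 0.25, adjusted p = 2.48e-05). For both, DTP EV 1 was the highest library. FGFR2, a fibroblast growth factor receptor, had 122, 369.7 and 358 scaled counts in DTP EV 1 to 3, against 16.3, 20.8 and 13.4 in Parental EV 1 to 3 (log2 3.85, SE 0.44, adjusted p = 0.000306). IGF1R, the receptor of insulin-like growth factors, rose (log2 0.79, SE 0.06), as did IRS1, its adaptor (log2 1.13, SE 0.13), and IGFBP2, a binding protein of those growth factors, fell (log2 -1.54, SE 0.14). MET, the hepatocyte growth factor receptor, fell to 23196, 14739.5 and 16929.7 in DTP EV, against 52813, 50974 and 49118 in Parental EV (log2 -1.50, SE 0.15). Of the list of IGF binding proteins, 11 were tested, 3 were called higher and 2 lower, and 4 and 3 without DTP EV 1, and lower calls numbered 1 without DTP EV 2 and 1 without any 1 Parental EV library.

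Genes that FOXO factors induce or that restrain PI3K when growth factor signalling is low were more often higher. Of 28 members tested, 14 were called higher and 5 lower, and 16 and 5 without DTP EV 1, with a median of 0.26, and lower calls numbered 3 without any 1 Parental EV library. PIK3IP1, a membrane inhibitor of PI3K, had 1048, 2224 and 2121 scaled counts in DTP EV 1 to 3, against 242, 286 and 256 in Parental EV 1 to 3 (log2 2.70, SE 0.27, adjusted p = 0.000176). TXNIP, a brake on glucose uptake, had 2648, 4062 and 4804 scaled counts in DTP EV 1 to 3, against 964, 1062 and 1051 in Parental EV 1 to 3 (log2 1.86, SE 0.20, adjusted p = 0.00022). Both were lower in DTP EV 1 than in DTP EV 2 and 3 and above Parental EV in all. SESN1, a stress-induced regulator of mTORC1, rose (log2 1.50, SE 0.26). TRIB2, a pseudokinase that restrains FOXO, fell (log2 -2.58, and -3.40 without DTP EV 1).

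Genes of replication and mitosis were lower. Of the G2 and mitosis genes, 53 were tested, 0 were called higher and 53 lower, and 0 and 53 without DTP EV 1, with a median of -1.93 (-2.23 without DTP EV 1). Of the DNA replication and S phase genes, 42 were tested, 0 were called higher and 36 lower, and 0 and 41 without DTP EV 1, with a median of -0.97 (-1.13 without DTP EV 1). MKI67, the proliferation antigen Ki-67, had 5332, 2972 and 3243 scaled counts in DTP EV 1 to 3, against 15664, 15886 and 15738 in Parental EV 1 to 3 (log2 -2.08, SE 0.20, adjusted p = 0.000139). CDK1, the kinase of mitotic entry, had 924, 575 and 458 scaled counts in DTP EV 1 to 3, against 3999.7, 3839.9 and 4076 in Parental EV 1 to 3 (log2 -2.67, SE 0.23, adjusted p = 8.45e-05). For both genes DTP EV 1 lay between the other DTP EV libraries and Parental EV, without overlap with either. TOP2A, the topoisomerase of chromosome separation (log2 -2.87, SE 0.24), NUSAP1, a spindle protein (log2 -2.96, SE 0.31), and AURKA, a spindle kinase (log2 -1.98, SE 0.20), fell too. Of the replication genes, CDT1, a licensing factor (log2 -2.32, SE 0.23), RRM2, the ribonucleotide reductase subunit (log2 -1.43, SE 0.21), and MCM2, a helicase subunit (log2 -0.83, SE 0.15), fell.

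The promoter of MKI67 is shown because mitotic genes share the cell cycle homology region (CHR) at which the DREAM complex represses them outside the cell cycle. It is RefSeq's for GRCh38.p14 (chr10:128126374-128126673, minus strand), with the CHR letters TTTGAA, on either strand, in capitals.
MKI67: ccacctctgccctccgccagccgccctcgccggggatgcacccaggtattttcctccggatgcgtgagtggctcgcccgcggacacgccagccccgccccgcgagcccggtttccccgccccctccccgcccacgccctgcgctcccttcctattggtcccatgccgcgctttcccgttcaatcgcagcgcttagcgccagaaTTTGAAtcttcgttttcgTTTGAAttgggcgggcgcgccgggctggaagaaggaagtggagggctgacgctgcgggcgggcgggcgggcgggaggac
Of 45 promoters of G2 and mitosis genes in the table, 32 held TTTGAA (71.1%), against 4212 of all 27305 (15.4%). The CCAAT box, which often stands beside it, was in 33 of the 45 (73.3%), against 9747 of all (35.7%). The E2F letters TTTCGCGC or TTTGGCGC were in 11 of 36 promoters of S phase genes (30.6%), against 322 of all (1.18%). Searches covered both strands and these motifs were not required to be free of overlap with each other, so the shares describe letters and not bound sites.

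Inhibitors of cyclin-dependent kinases moved unequally. CDKN2B, p15, an inhibitor of CDK4 and CDK6 that TGF-beta induces, had 3210.5, 6681 and 6176 scaled counts in DTP EV 1 to 3, against 673, 533 and 539 in Parental EV 1 to 3 (log2 3.14, SE 0.27, adjusted p = 8.14e-05). CDKN1C, p57, had 314, 491 and 412 scaled counts in DTP EV 1 to 3, against 31.6, 44.3 and 58.3 in Parental EV 1 to 3 (log2 3.17, SE 0.26, adjusted p = 7.57e-05). CDKN1A, p21, the p53-induced inhibitor, was not called (log2 -0.07, SE 0.19, adjusted p = 0.766), and without DTP EV 1 its change was 0.17 (adjusted p = 0.049). Across the G1 regulators, 32 were tested, 2 were called higher and 15 lower, and 4 and 20 without DTP EV 1, with E2F1, the factor that starts S phase, lower (log2 -0.74, SE 0.14), and higher calls numbered 4 without DTP EV 3. Replication-dependent histone genes have mRNAs that normally lack a poly(A) tail and can be read in libraries made by rRNA removal. Of 55 on the list, only 26 had enough counts to test. Of these, 11 were called higher and 4 lower, and 11 and 4 without DTP EV 1, with a median of 0.62. The rest fell below the filter, such as HIST1H4C (3.984, 2.095 and 0 in DTP EV, against 5.095, 3.471 and 0 in Parental EV). The result does not cover them, and whether the reads came from mRNAs without a poly(A) tail was not tested. HIST1H2AC, an H2A gene, had 1856, 2034 and 1948 scaled counts in DTP EV 1 to 3, against 987, 951 and 975 in Parental EV 1 to 3 (log2 1.00, SE 0.06, adjusted p = 2.42e-05). These histone genes are near copies of each other, so reads can be split between them. APOBEC3 cytidine deaminase and DNA repair genes were mostly lower (2 higher and 27 lower of 39 tested, and 6 and 29 without DTP EV 1), and higher calls numbered 1 without Parental EV 2 and 1 without Parental EV 3. BRCA1 (log2 -2.08, SE 0.16) and POLQ (log2 -2.44, SE 0.21), both of double-strand break repair, and APOBEC3B (log2 -1.31, SE 0.14) fell. Among chromatin regulators tied to drug tolerance, 43 were tested, 8 were called higher and 15 lower, and 11 and 17 without DTP EV 1. EZH2, the H3K27 methyltransferase, fell (log2 -0.97, SE 0.07).

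Genes of YAP, TEAD and their direct targets were mostly higher. The list also holds the cofactor VGLL1, and it shares AXL and TGFB2 with the receptor and TGF-beta lists, so their calls count in both. Of 33 members tested, 26 were called higher and 3 lower, and 26 and 2 without DTP EV 1, with a median of 0.93 (0.97 without DTP EV 1), and lower calls numbered 1 without Parental EV 2. CYR61, a matricellular protein, had 59599, 64039.7 and 68718 scaled counts in DTP EV 1 to 3, against 15320.1, 15519 and 15274 in Parental EV 1 to 3 (log2 2.06, SE 0.07, adjusted p = 2.32e-06). CTGF, the connective tissue growth factor, had 1899, 1426 and 1299.6 scaled counts in DTP EV 1 to 3, against 95.8, 129 and 103 in Parental EV 1 to 3 (log2 3.80, SE 0.18, adjusted p = 7.28e-06). VGLL1, a TEAD cofactor, had 428, 803 and 1070.5 scaled counts in DTP EV 1 to 3, against 12.2, 13.02 and 11.5 in Parental EV 1 to 3 (log2 5.76, SE 0.32, adjusted p = 1.55e-05). Every DTP EV library of these 3 genes exceeded every Parental EV library, and DTP EV 1 was the highest for CTGF and the lowest for CYR61 and VGLL1. AMOTL2, a YAP-binding protein that YAP itself induces, rose (log2 1.56, SE 0.05). NUAK2, a kinase that is also a YAP target, was not called (log2 0.02, SE 0.09, adjusted p = 0.873).

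The promoters of CTGF and ANKRD1 are shown because they carry classic TEAD sites next to the start of transcription. They are RefSeq's for GRCh38.p14 (CTGF, there named CCN2, chr6:131951323-131951622, minus strand, and ANKRD1, chr10:90921038-90921337, minus strand), with the TEAD core GGAATG, on either strand, in capitals.
CTGF: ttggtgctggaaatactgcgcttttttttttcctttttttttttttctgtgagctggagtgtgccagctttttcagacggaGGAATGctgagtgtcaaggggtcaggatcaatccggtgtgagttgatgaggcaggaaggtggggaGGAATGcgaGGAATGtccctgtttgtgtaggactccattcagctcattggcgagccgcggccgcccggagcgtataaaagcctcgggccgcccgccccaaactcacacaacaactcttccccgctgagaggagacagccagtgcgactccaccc
ANKRD1: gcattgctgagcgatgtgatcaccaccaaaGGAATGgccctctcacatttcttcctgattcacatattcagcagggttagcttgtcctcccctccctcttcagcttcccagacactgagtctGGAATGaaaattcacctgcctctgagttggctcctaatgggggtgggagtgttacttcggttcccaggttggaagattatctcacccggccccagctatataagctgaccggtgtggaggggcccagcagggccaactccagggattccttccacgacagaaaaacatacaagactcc
GGAATG or its reverse complement was in 9 of 27 promoters of the list (33.3%), against 3836 of all 27305 (14%). AMOTL2 had no match in its window, which says only that these letters are not in those 300 bases.

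Genes of TGF-beta and BMP signalling were more often higher: of 43 members tested, 25 were called higher and 8 lower, and 25 and 9 without DTP EV 1, with a median of 0.56. TGFB2, a TGF-beta ligand, had 9511, 11746 and 12642 scaled counts in DTP EV 1 to 3, against 1196, 1243 and 1122 in Parental EV 1 to 3 (log2 3.24, SE 0.11, adjusted p = 2.32e-06). INHBA, a subunit of activin, had 792, 857 and 983 scaled counts in DTP EV 1 to 3, against 19.4, 36.5 and 22.9 in Parental EV 1 to 3 (log2 5.05, SE 0.24, adjusted p = 8.04e-06). Both ligands had their lowest DTP EV level in DTP EV 1. INHBB, the other activin subunit, had 962, 3076 and 3365 scaled counts in DTP EV 1 to 3, against 165, 161 and 161 in Parental EV 1 to 3 (log2 3.72, SE 0.44, adjusted p = 0.000334, 4.30 without DTP EV 1). NOG, a secreted BMP antagonist, had 333, 110.0 and 159 scaled counts in DTP EV 1 to 3, against 5.09, 2.60 and 1.91 in Parental EV 1 to 3 (log2 5.50, SE 0.48, adjusted p = 9.48e-05). All of these ligands and antagonists stood higher in each DTP EV library, NOG from a few counts in Parental EV. NOG passed the filter only through its DTP EV counts, so it could not have been called lower.

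Collagens and other matrix genes held the highest median of the lists with over 10 members tested: of 45 members tested, 27 were called higher and 5 lower, and 27 and 10 without DTP EV 1, with a median of 1.15 (1.03 without DTP EV 1). THBS1, thrombospondin, a matricellular activator of latent TGF-beta, had 25058, 26192 and 21893 scaled counts in DTP EV 1 to 3, against 989.5, 1066 and 1011 in Parental EV 1 to 3 (log2 4.57, SE 0.08, adjusted p = 1.92e-07). COL12A1, a fibril-associated collagen, had 2176, 2535 and 1986 scaled counts in DTP EV 1 to 3, against 78.5, 45.99 and 50.7 in Parental EV 1 to 3 (log2 5.27, SE 0.21, adjusted p = 3.74e-06). FN1, fibronectin, had 65970.2, 103378 and 104238 scaled counts in DTP EV 1 to 3, against 33504, 33828 and 33523 in Parental EV 1 to 3 (log2 1.41, SE 0.17, adjusted p = 0.000394). DTP EV 1 was the lowest DTP EV library for FN1, and groups did not overlap for any of these genes. COL4A1, a basement membrane collagen (log2 1.33, SE 0.08), and SPARC, a collagen-binding glycoprotein (log2 3.61, SE 0.14), rose. COL3A1, a fibroblast collagen, had 333, 27.2 and 18.1 scaled counts in DTP EV 1 to 3, against 0, 3.47 and 0 in Parental EV 1 to 3 (adjusted p = 0.0071), so its level came mostly from DTP EV 1. Among matrix proteases and inhibitors, 30 were tested, 12 were called higher and 11 lower, and 14 and 12 without DTP EV 1. MMP2, a gelatinase, had 584, 139 and 146 scaled counts in DTP EV 1 to 3, against 0, 4.34 and 3.82 in Parental EV 1 to 3 (adjusted p = 0.000499), whereas PLAU, urokinase, fell (log2 -0.73, SE 0.14), and so did TIMP1, an inhibitor of matrix proteases (log2 -0.34, SE 0.07). Of 12 fibroblast markers, 3 were expressed highly enough to test and all 3 were called higher. The list summed to 1387 to 1529 scaled counts in DTP EV and 553 to 579 in Parental EV, and THY1, POSTN and TCF21 were at 0 in all 6 libraries. The 3 tested, COL1A1, COL3A1 and LUM, also stand in the matrix list, so their calls are no separate result. COL3A1, like MMP2 above, passed the filter only through its DTP EV counts, so neither gene could have been called lower. The part of fibroblast markers in the matrix result was not tested. Integrin and laminin subunits had as many calls each way (11 higher and 11 lower of 30 tested, and 13 and 12 without DTP EV 1).

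Markers of epithelial to mesenchymal transition divided. Of 31 members tested, 13 were called higher and 10 lower, and 17 and 10 without DTP EV 1, with a median of 0.10. VIM, the mesenchymal intermediate filament protein, had 14429.8, 7464 and 8501 scaled counts in DTP EV 1 to 3, against 586, 564 and 530.5 in Parental EV 1 to 3 (log2 4.11, SE 0.22, adjusted p = 1.29e-05). SNAI2, a repressor of epithelial genes, had 382, 501 and 498 scaled counts in DTP EV 1 to 3, against 63.2, 59.9 and 58.3 in Parental EV 1 to 3 (log2 2.90, SE 0.15, adjusted p = 1.19e-05). CDH2, N-cadherin, had 157, 89.03 and 70.3 scaled counts in DTP EV 1 to 3, against 0, 0 and 5.74 in Parental EV 1 to 3 (adjusted p = 0.000702). DTP EV 1 was the highest DTP EV library for VIM and CDH2 but not for SNAI2. CDH2 passed the filter only through its DTP EV counts, so it could not have been called lower. SNAI1 and ZEB2, repressors of the same kind, were named after their values were seen. SNAI1 had 37.9, 23.04 and 28.4 scaled counts in DTP EV 1 to 3, against 392, 427 and 432 in Parental EV 1 to 3 (log2 -3.79, SE 0.20, adjusted p = 1.28e-05), and ZEB2 had 594, 186 and 172 scaled counts in DTP EV 1 to 3, against 30.6, 25.2 and 38.2 in Parental EV 1 to 3 (log2 3.07, SE 0.47, adjusted p = 0.00112). ESRP1, a splicing factor of epithelial cells, fell (log2 -1.10, SE 0.14). Tight junction and desmosome genes were called in both directions (9 higher and 6 lower of 27 tested, and 15 and 6 without DTP EV 1). CLDN1, a claudin, rose (log2 1.97, SE 0.13), as did TJP1, a junction scaffold (log2 0.73, SE 0.10), while CLDN2, a pore-forming claudin, fell to 130.5, 6.28 and 10.2 in DTP EV, against 906, 939.8 and 903 in Parental EV (log2 -5.38, -6.67 without DTP EV 1 and -4.58 without DTP EV 2).

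**Figure D3:**
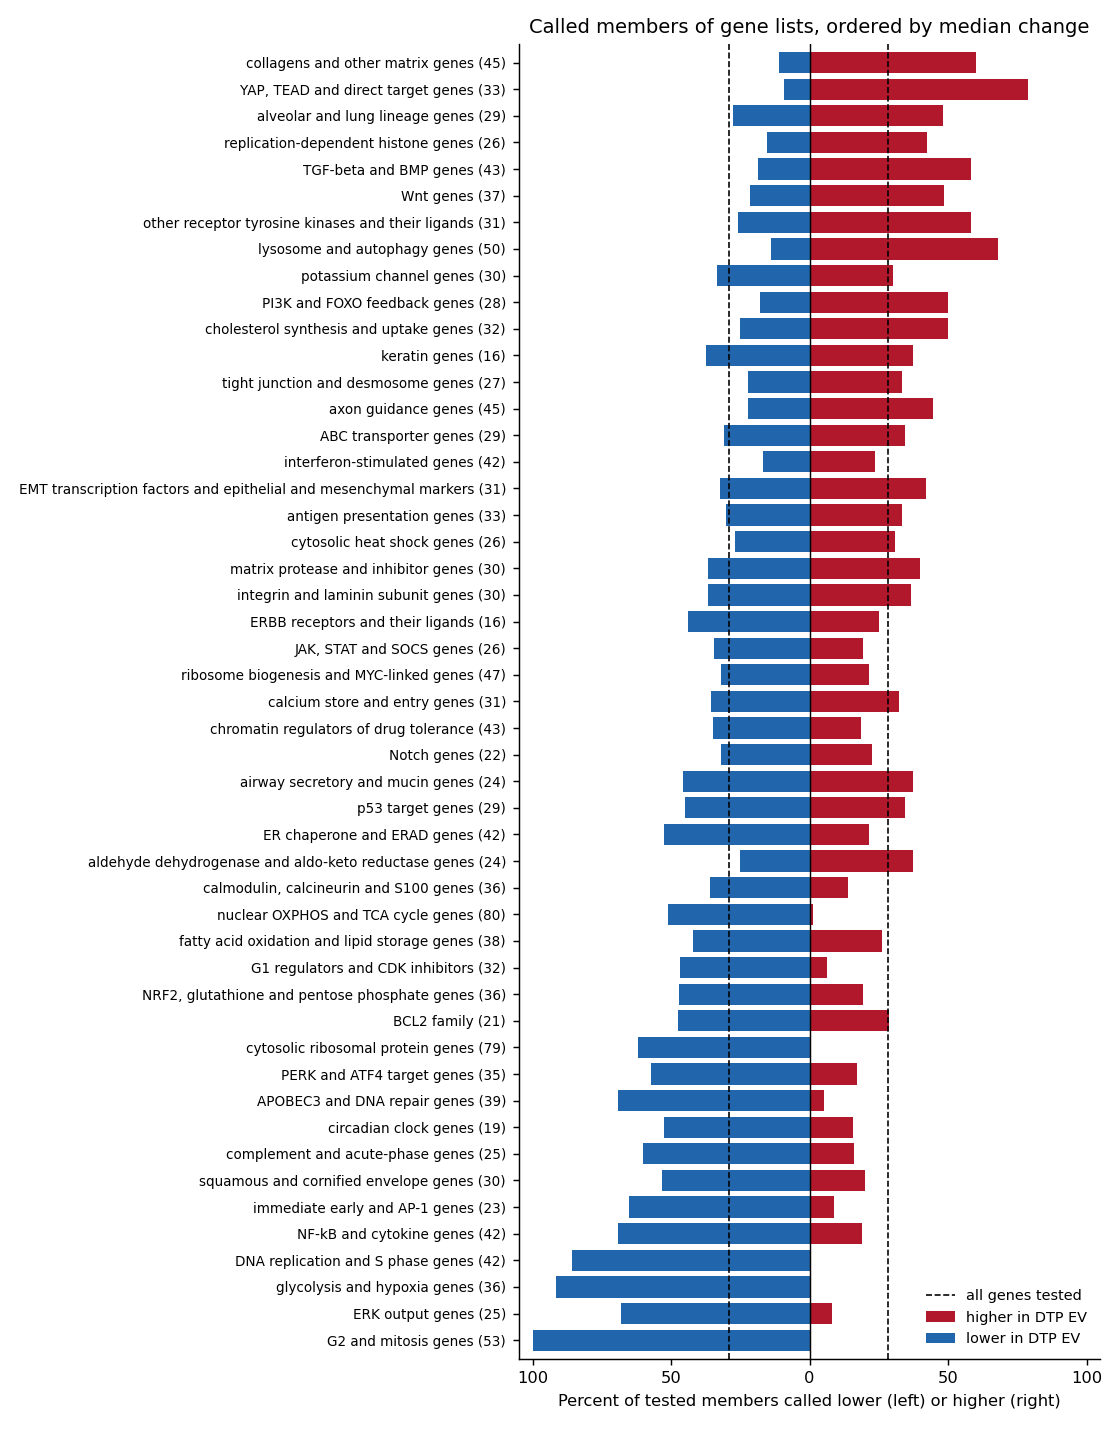
Share of tested members, in percent, that were called lower (left, blue) or higher (right, red) in DTP EV than in Parental EV, for each list with at least 16 members tested, ordered by median change with the number tested in brackets. Dashed lines mark all genes tested (29.0% lower and 28.4% higher), and all 53 G2 and mitosis genes reach the left end while 26 of 33 YAP and TEAD genes are red.

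Glycolysis and hypoxia genes fell together. Of 36 members tested, 0 were called higher and 33 lower, and 0 and 33 without DTP EV 1, with a median of -1.30 (-1.41 without DTP EV 1). LDHA, which turns pyruvate into lactate, had 24501, 19006 and 16389.9 scaled counts in DTP EV 1 to 3, against 64898, 66070.4 and 67162 in Parental EV 1 to 3 (log2 -1.75, SE 0.14, adjusted p = 5.82e-05). PDK1, the kinase that keeps pyruvate out of mitochondria, had 716, 545 and 499 scaled counts in DTP EV 1 to 3, against 3926, 3846 and 3749.7 in Parental EV 1 to 3 (log2 -2.73, SE 0.13, adjusted p = 7.99e-06). NDRG1, a gene that hypoxia induces, had 1444, 878 and 874 scaled counts in DTP EV 1 to 3, against 13905, 13572 and 13920.5 in Parental EV 1 to 3 (log2 -3.74, SE 0.18, adjusted p = 9.17e-06). DTP EV 1 was the highest DTP EV library for each, and none reached the Parental EV range. GAPDH (log2 -1.39, SE 0.13), PGK1 (log2 -1.84, SE 0.15) and ALDOA (log2 -1.49, SE 0.12), enzymes of the lower and middle glycolytic pathway, fell, and so did ASPH, an aspartyl hydroxylase of the ER (log2 -1.88, SE 0.09). GAPDH, PGK1, LDHA and ASPH were among the largest losses in absolute scaled counts.

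Mitochondrial genes split by genome. Of the mitochondrial genome genes, 13 were tested, 7 were called higher and 0 lower, and 7 and 0 without DTP EV 1, with a median of 0.51. MT-ND1, a complex I subunit, had 69033, 65034 and 76936 scaled counts in DTP EV 1 to 3, against 43939, 38506 and 40498 in Parental EV 1 to 3 (log2 0.78, SE 0.09, adjusted p = 0.000287). MT-CO3, a cytochrome oxidase subunit, rose too (log2 0.70, SE 0.12), and MT-CO1, its catalytic subunit, was not called (log2 0.15, SE 0.15, adjusted p = 0.423). Of the nuclear OXPHOS and TCA cycle genes, 80 were tested, 1 was called higher and 41 lower, and 1 and 55 without DTP EV 1, with a median of -0.24, and higher calls numbered 2 without DTP EV 2 and 2 without DTP EV 3 and lower calls numbered 26 without Parental EV 3. NDUFS1, a core subunit of complex I (log2 -0.37, SE 0.06), and COX8A, a small subunit of cytochrome oxidase (log2 -0.95, SE 0.11), fell. Cytosolic ribosomal protein genes fell by a similar small amount: of 79 members tested, 0 were called higher and 49 lower, and 0 and 68 without DTP EV 1, with a median of -0.34, and lower calls numbered 31 without DTP EV 2, 31 without Parental EV 1, 28 without Parental EV 2 and 23 without Parental EV 3. RPSA, a small-subunit protein, had 21375, 16167 and 14634 scaled counts in DTP EV 1 to 3, against 27869.5, 28102 and 28432 in Parental EV 1 to 3 (log2 -0.71, SE 0.13, adjusted p = 0.00269). Ribosomal protein genes have many processed pseudogenes, so their reads are uncertain. Of the ribosome biogenesis and MYC-linked genes, 47 were tested, 10 were called higher and 15 lower, and 11 and 23 without DTP EV 1.

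Lysosome and autophagy genes rose. Of 50 members tested, 34 were called higher and 7 lower, and 36 and 8 without DTP EV 1, with a median of 0.46 (0.51 without DTP EV 1). CTSH, an aminopeptidase of lysosomes, had 4572, 6584 and 6777 scaled counts in DTP EV 1 to 3, against 1876, 1836 and 1790.2 in Parental EV 1 to 3 (log2 1.68, SE 0.14, adjusted p = 8.48e-05). CTSB, another lysosomal protease, rose (log2 0.64, SE 0.05), as did LAMP1, the main protein of the lysosomal membrane (log2 0.75, SE 0.07). SQSTM1, an autophagy receptor that is itself degraded, fell (log2 -0.35, SE 0.07). In lipid metabolism, CPT1A, the gate of fatty acid entry into mitochondria, had 1148, 1438 and 1533 scaled counts in DTP EV 1 to 3, against 233, 223 and 239.9 in Parental EV 1 to 3 (log2 2.55, SE 0.12, adjusted p = 8.18e-06). Its list was mixed (10 higher and 16 lower of 38 tested, and 12 and 20 without DTP EV 1), and higher calls numbered 6 without DTP EV 2 and 6 without Parental EV 1. FASN, fatty acid synthase (log2 -0.57, SE 0.07), and ACSL4, which loads polyunsaturated fatty acids into phospholipids (log2 -1.90, SE 0.15), fell. Of the cholesterol genes, 32 were tested, 16 were called higher and 8 lower, and 18 and 9 without DTP EV 1, with a median of 0.24. Enzymes of synthesis such as SQLE (log2 1.12, SE 0.10) and LSS (log2 0.97, SE 0.05) rose, whereas ABCA1, the efflux pump (log2 -2.33, SE 0.06), fell.

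More ER stress genes were called lower than higher. Of the ER chaperone and degradation genes, 42 were tested, 9 were called higher and 22 lower, and 12 and 24 without DTP EV 1, with a median of -0.20, and higher calls numbered 5 without Parental EV 2. HSPA5, the main ER chaperone, had 27339, 26406 and 27284 scaled counts in DTP EV 1 to 3, against 41094, 40994 and 41786 in Parental EV 1 to 3 (log2 -0.61, SE 0.05, adjusted p = 9.6e-05). ERO1A, the oxidase of disulfide formation (log2 -1.23, SE 0.13), and XBP1, a factor of the unfolded protein response (log2 -0.40, SE 0.06), fell, whereas EDEM2, which trims glycans for degradation, rose (log2 1.41, SE 0.10). Of PERK and ATF4 targets, 35 were tested, 6 were called higher and 20 lower, and 9 and 22 without DTP EV 1. DDIT4, an mTORC1 inhibitor, had 2926, 3752 and 3868 scaled counts in DTP EV 1 to 3, against 26471, 26492 and 26478 in Parental EV 1 to 3 (log2 -2.92, SE 0.10, adjusted p = 2.77e-06). DDIT3, the stress factor CHOP, fell as well (log2 -1.27, SE 0.07). ATF6, the sensor whose locus gives the circular RNA of the series, was called at a change of 0.16 (adjusted p = 0.0245), a call lost without any 1 of the Parental EV libraries (adjusted p = 0.109, 0.0811 and 0.0733 without Parental EV 1, 2 and 3). Of the calcium store and entry genes, 31 were tested, 10 were called higher and 11 lower, and 12 and 14 without DTP EV 1. ATP2A2, the ER calcium pump (log2 -0.64, SE 0.06), and ITPR3, an ER calcium release channel (log2 -0.42, SE 0.07), fell, and ITPR1, a channel of the same family, missed the threshold (log2 -0.22, SE 0.16, adjusted p = 0.272, and -0.35 with adjusted p = 0.0454 without DTP EV 1). Of the genes of mitochondrial calcium handling, 14 were tested, 0 were called higher and 4 lower, and 1 and 7 without DTP EV 1, and higher calls numbered 1 without DTP EV 3 and lower calls numbered 2 without Parental EV 2. Cytosolic heat shock genes had calls both ways (8 higher and 7 lower of 26 tested, and 9 and 9 without DTP EV 1), and lower calls numbered 4 without DTP EV 2 and 4 without any 1 Parental EV library. HSPA8, the constitutive HSP70 (log2 0.89, SE 0.06), and HSPA1A, the inducible one (log2 1.27, SE 0.13), rose. HSPA1A has a near-identical copy, HSPA1B, with which it can share reads.

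Genes of NF-kB and inflammatory cytokines were lower. Of 42 members tested, 8 were called higher and 29 lower, and 8 and 30 without DTP EV 1, with a median of -0.86 (-0.88 without DTP EV 1). CCL20, a chemokine of epithelia, had 149, 189.6 and 159 scaled counts in DTP EV 1 to 3, against 6828, 6816 and 6762 in Parental EV 1 to 3 (log2 -5.36, SE 0.10, adjusted p = 2.41e-07). CSF3, a granulocyte growth factor, had 2.99, 16.8 and 0 scaled counts in DTP EV 1 to 3, against 372, 282 and 333 in Parental EV 1 to 3 (adjusted p = 0.000897). TNFAIP3, the feedback inhibitor A20, had 4313, 4351 and 4504 scaled counts in DTP EV 1 to 3, against 11968, 11814 and 11673 in Parental EV 1 to 3 (log2 -1.43, SE 0.05, adjusted p = 2.32e-06). Each of these stood in all DTP EV libraries below all Parental EV libraries, and DTP EV 1 was not the highest DTP EV library for any of them. ICAM1, an adhesion receptor for leukocytes, fell (log2 -1.10, SE 0.08). Complement and acute-phase genes were also mostly lower (4 higher and 15 lower of 25 tested, and 7 and 17 without DTP EV 1), and higher calls numbered 2 without DTP EV 2 and 2 without Parental EV 3 and lower calls numbered 9 without DTP EV 2, 9 without Parental EV 2 and 9 without Parental EV 3. C3, the central complement protein (log2 -0.83, SE 0.11), and PIGR, the receptor that carries immunoglobulin across epithelia (log2 -2.10, SE 0.14), fell, while CLU, a secreted chaperone, had 2480.3, 1079 and 1220.2 scaled counts in DTP EV 1 to 3, against 128, 167 and 137 in Parental EV 1 to 3 (log2 3.37, SE 0.30, adjusted p = 0.000102). Of JAK, STAT and SOCS genes, 26 were tested, 5 were called higher and 9 lower, and 8 and 11 without DTP EV 1.

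The counts of interferon-stimulated genes moved with DTP EV 1: of 42 members tested, 10 were called higher and 7 lower, and 19 and 8 without DTP EV 1, and the median was 0.10, against 0.17 without it. TRIM22, an antiviral ubiquitin ligase, had 2028, 3584 and 3134 scaled counts in DTP EV 1 to 3, against 231, 205 and 224 in Parental EV 1 to 3 (log2 3.68, SE 0.20, adjusted p = 1.28e-05). STAT2, a subunit of the interferon-activated factor, had 6198, 9998 and 9542 scaled counts in DTP EV 1 to 3, against 3024, 3219 and 3097 in Parental EV 1 to 3 (log2 1.43, SE 0.17, adjusted p = 0.00035). OASL, an antiviral protein, had 106, 159 and 89.6 scaled counts in DTP EV 1 to 3, against 472, 473 and 522 in Parental EV 1 to 3 (log2 -2.08, SE 0.21, adjusted p = 0.000177). TRIM22 and STAT2 stood higher, and OASL lower, in each DTP EV library. GBP1 (log2 -1.07, SE 0.06) and GBP2 (log2 -1.08, SE 0.05), GTPases that interferon-gamma induces, fell. Antigen presentation genes had calls both ways (11 higher and 10 lower of 33 tested, and 14 and 11 without DTP EV 1). HLA-B, a class I heavy chain whose reads can be shared with its close paralogs, rose (log2 0.93, SE 0.17), and CD274, PD-L1, had 743, 1119.6 and 971 scaled counts in DTP EV 1 to 3, against 1714, 1689.6 and 1705 in Parental EV 1 to 3 (log2 -0.87, SE 0.14, adjusted p = 0.00147).

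Secretory and squamous genes were among the steepest losses. MUC5B, a gel-forming airway mucin, had 1998, 749 and 691 scaled counts in DTP EV 1 to 3, against 46981, 46156 and 45845 in Parental EV 1 to 3 (log2 -5.52, SE 0.37, adjusted p = 2.95e-05). MUC5AC, the other gel-forming airway mucin, had 9.96, 6.28 and 6.80 scaled counts in DTP EV 1 to 3, against 489, 547 and 506 in Parental EV 1 to 3 (log2 -5.91, SE 0.22, adjusted p = 3.2e-06). AZGP1, a secreted lipid-mobilising glycoprotein, fell (log2 -4.35). MUC16, a cell-surface mucin, rose (log2 0.82, SE 0.20), and the airway secretory list had calls both ways (9 higher and 11 lower of 24 tested, and 9 and 11 without DTP EV 1). Of squamous and cornified envelope genes, 30 were tested, 6 were called higher and 16 lower, and 6 and 16 without DTP EV 1, with a median of -0.76. SERPINB4, a squamous protease inhibitor, had 35.9, 13.6 and 17.01 scaled counts in DTP EV 1 to 3, against 4871, 5096 and 5208 in Parental EV 1 to 3 (log2 -7.89, SE 0.31, adjusted p = 3.74e-06), with reads hard to tell from those of its paralog SERPINB3. PI3, the elastase inhibitor elafin, fell (log2 -3.74, SE 0.14). The alarmins S100A8, S100A9 and S100A7, calcium-binding proteins of inflamed epithelium, fell, with log2 changes of -7.07, -4.02 and -6.12, and of -7.48, -4.67 and -6.93 without DTP EV 1. S100A7 changed by -5.41 without DTP EV 2. Among keratin genes, 16 were tested, 6 were called higher and 6 lower, and 7 and 6 without DTP EV 1. KRT7, a simple-epithelial keratin, had 77448, 98898 and 103330.2 scaled counts in DTP EV 1 to 3, against 44724, 45564 and 45826 in Parental EV 1 to 3 (log2 1.03, SE 0.11, adjusted p = 0.000255). KRT17, a stress keratin, rose (log2 5.30, SE 0.43), and KRT6A, a wound keratin, fell (log2 -3.12, SE 0.22).

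Alveolar and lung lineage genes rose more often than they fell (14 higher and 8 lower of 29 tested, and 18 and 9 without DTP EV 1), with a median of 0.62. SLC34A2, the phosphate transporter of alveolar type II cells, had 4354, 7293 and 6450.3 scaled counts in DTP EV 1 to 3, against 1111, 1197 and 1156 in Parental EV 1 to 3 (log2 2.35, SE 0.17, adjusted p = 4.63e-05). ABCA3, the lipid pump of lamellar bodies, had 1478, 1229.6 and 1227 scaled counts in DTP EV 1 to 3, against 482, 462 and 477 in Parental EV 1 to 3 (log2 1.46, SE 0.09, adjusted p = 2.6e-05). HOPX, a cofactor of alveolar type I cells, had 68.7, 504 and 371 scaled counts in DTP EV 1 to 3, against 0, 4.34 and 10.5 in Parental EV 1 to 3 (adjusted p = 0.00223), and CLIC5, a chloride channel protein of those cells, had 93.6, 559 and 440.0 scaled counts in DTP EV 1 to 3, against 5.09, 0 and 0 in Parental EV 1 to 3 (adjusted p = 0.000452). CAV1, the caveolar coat protein, rose (log2 0.87, SE 0.12). For HOPX, CLIC5 and SLC34A2, DTP EV 1 was the lowest DTP EV library. CLIC5 passed the filter only through its DTP EV counts, so it could not have been called lower. FOXA2, an airway lineage factor (log2 -2.94, SE 0.27), and NAPSA, the aspartic protease of surfactant processing (log2 -0.88, SE 0.17), fell. SFTPB fell too, from few counts (log2 -3.92).

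Genes of cell death moved to both sides. BMF, a pro-apoptotic BH3-only protein, had 15515, 17170.4 and 19157 scaled counts in DTP EV 1 to 3, against 6020.4, 6028 and 5859 in Parental EV 1 to 3 (log2 1.53, SE 0.08, adjusted p = 1.14e-05). BCL2L1, the anti-apoptotic BCL-XL, had 8432, 9616 and 9825 scaled counts in DTP EV 1 to 3, against 4797, 5162 and 5011 in Parental EV 1 to 3 (log2 0.89, SE 0.07, adjusted p = 6.35e-05). BCL2A1, an anti-apoptotic gene that NF-kB induces, had 202, 102 and 99.8 scaled counts in DTP EV 1 to 3, against 1588, 1624 and 1583 in Parental EV 1 to 3 (log2 -3.64, SE 0.26, adjusted p = 3.94e-05). Thus 1 pro-apoptotic and 1 anti-apoptotic gene rose together while another anti-apoptotic gene fell. MCL1, a short-lived anti-apoptotic protein (log2 -0.33, SE 0.05), and BNIP3, a hypoxia-induced mitophagy receptor (log2 -2.02, SE 0.06), fell. BCL2L11, BIM, which mediates death after EGFR inhibition, was called at 0.23 (adjusted p = 0.0277), and the call was lost without any 1 library other than DTP EV 1 (adjusted p = 0.0784 and 0.0736 without DTP EV 2 and 3, and 0.0922, 0.0557 and 0.0987 without Parental EV 1, 2 and 3). Across the BCL2 family, 21 were tested, 6 were called higher and 10 lower, and 5 and 11 without DTP EV 1, and higher calls numbered 3 without DTP EV 2 and 3 without Parental EV 1. Of p53 targets, 29 were tested, 10 were called higher and 13 lower, and 11 and 13 without DTP EV 1. GDF15, a stress cytokine, had 618, 395 and 595 scaled counts in DTP EV 1 to 3, against 7425, 7215 and 7399.9 in Parental EV 1 to 3 (log2 -3.80, SE 0.16, adjusted p = 4.82e-06).

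In developmental pathways, Wnt genes rose more often than they fell (18 higher and 8 lower of 37 tested, and 18 and 11 without DTP EV 1), with a median of 0.55. NOTUM, a secreted enzyme that inactivates Wnt, had 389.5, 924 and 1032 scaled counts in DTP EV 1 to 3, against 0, 6.07 and 2.87 in Parental EV 1 to 3 (adjusted p = 0.000116). DKK1, a secreted Wnt antagonist, had 1345, 1042 and 1115 scaled counts in DTP EV 1 to 3, against 161, 119.8 and 123 in Parental EV 1 to 3 (log2 3.11, SE 0.15, adjusted p = 9.21e-06). WNT5A, a ligand that acts mostly without beta-catenin, had 182, 248 and 126 scaled counts in DTP EV 1 to 3, against 11.2, 13.02 and 19.1 in Parental EV 1 to 3 (log2 3.57, SE 0.32, adjusted p = 0.000106). These secreted antagonists and the ligand stood higher in every DTP EV library, while CTNNB1, beta-catenin, fell (log2 -0.66, SE 0.05). NOTUM passed the filter only through its DTP EV counts, so it could not have been called lower. Of Notch genes, 22 were tested, 5 were called higher and 7 lower, and 6 and 10 without DTP EV 1, and lower calls numbered 4 without Parental EV 1. JAG1, a Notch ligand (log2 -1.60, SE 0.10), and HES1, a Notch target (log2 -1.80, SE 0.13), fell. Axon guidance genes, many of them ephrin receptors and semaphorins, had more members higher (20 higher and 10 lower of 45 tested, and 24 and 12 without DTP EV 1), with SEMA7A, a membrane-anchored semaphorin, higher (log2 1.30, SE 0.08). PLK2, a polo-like kinase induced by stress, rose (log2 1.65, SE 0.05). Clock genes were mostly lower (3 higher and 10 lower of 19 tested, and 4 and 10 without DTP EV 1), and higher calls numbered 1 without DTP EV 2 and 1 without Parental EV 1. NR1D1, a repressor of the clock (log2 -2.31, SE 0.09), and PER1, a light-responsive period gene (log2 -2.11, SE 0.08), fell.

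Detoxification and transport genes were mixed. Of NRF2, glutathione and pentose phosphate genes, 36 were tested, 7 were called higher and 17 lower, and 8 and 22 without DTP EV 1, with a median of -0.32. TXNRD1, thioredoxin reductase and an NRF2 target (log2 -1.21, SE 0.11), fell, while HMOX1, heme oxygenase (log2 1.18, SE 0.12), SLC40A1, the iron exporter ferroportin (log2 2.03, SE 0.19), and GPX4, the peroxidase that holds off ferroptosis (log2 0.45, SE 0.05), rose. Of aldehyde dehydrogenase and aldo-keto reductase genes, 24 were tested, 9 were called higher and 6 lower, and 9 and 11 without DTP EV 1. ALDH1A3, a retinaldehyde dehydrogenase, had 25304, 24574 and 23404 scaled counts in DTP EV 1 to 3, against 11748, 11504 and 11194 in Parental EV 1 to 3 (log2 1.09, SE 0.05, adjusted p = 9.78e-06). AKR1B10, a reductase that NRF2 induces, had 126, 16.8 and 7.94 scaled counts in DTP EV 1 to 3, against 926, 892 and 876 in Parental EV 1 to 3 (log2 -5.05, SE 0.86, adjusted p = 0.00188, -6.16 without DTP EV 1 and -4.25 without DTP EV 3). ALDH2, the mitochondrial acetaldehyde dehydrogenase, fell (log2 -1.35, SE 0.31). ABC transporters, which pump drugs, lipids and other compounds out of cells or into organelles, were called in both directions (10 higher and 9 lower of 29 tested, and 14 and 10 without DTP EV 1), with ABCC2 (log2 -1.57, SE 0.09) and ABCC3 (log2 -1.07, SE 0.13), exporters of conjugated compounds, lower. Of the calmodulin, calcineurin and S100 genes, 36 were tested, 5 were called higher and 13 lower, and 9 and 17 without DTP EV 1. Of potassium channels, 30 were tested, 9 were called higher and 10 lower, and 10 and 12 without DTP EV 1. KCNH1, a voltage-gated channel, had 384, 132 and 257 in DTP EV 1 to 3 and 0 in all 3 Parental EV libraries. It passed the filter only through those DTP EV counts, so it could not have been called lower. KCNN4, a calcium-activated channel, fell (log2 -1.79, SE 0.11).

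The position of DTP EV 1 was described gene by gene. Of 1907 genes that differed at least 2-fold between DTP EV 2 and 3 and Parental EV, with a mean of at least 100 scaled counts, DTP EV 1 lay between them and Parental EV for 1489, beyond DTP EV 2 and 3 for 375 and on the other side of Parental EV for 43. The median ratio of its difference from Parental EV to that of DTP EV 2 and 3 was 0.76. These genes were chosen on the other libraries, so DTP EV 2 and DTP EV 3 were each set aside in the same way. DTP EV 2 lay between the other pair and Parental EV for 506 of 1638 such genes and beyond the pair for 1123, with a median ratio of 1.09. DTP EV 3 lay between for 567 of 1651 and beyond for 1078, with a median ratio of 1.07. The lists show that the gap was uneven. For G2 and mitosis genes the median difference from the Parental EV mean was -1.36 in DTP EV 1, against -2.24 in DTP EV 2 and -2.23 in DTP EV 3. For YAP and TEAD genes it was 1.04, 1.01 and 0.93 in DTP EV 1, 2 and 3, and for NF-kB and cytokine genes -0.91, -0.85 and -0.87. Cell cycle genes were thus less reduced in DTP EV 1, while YAP and NF-kB genes stood at about the level of the other DTP EV libraries.

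**Figure D4:**
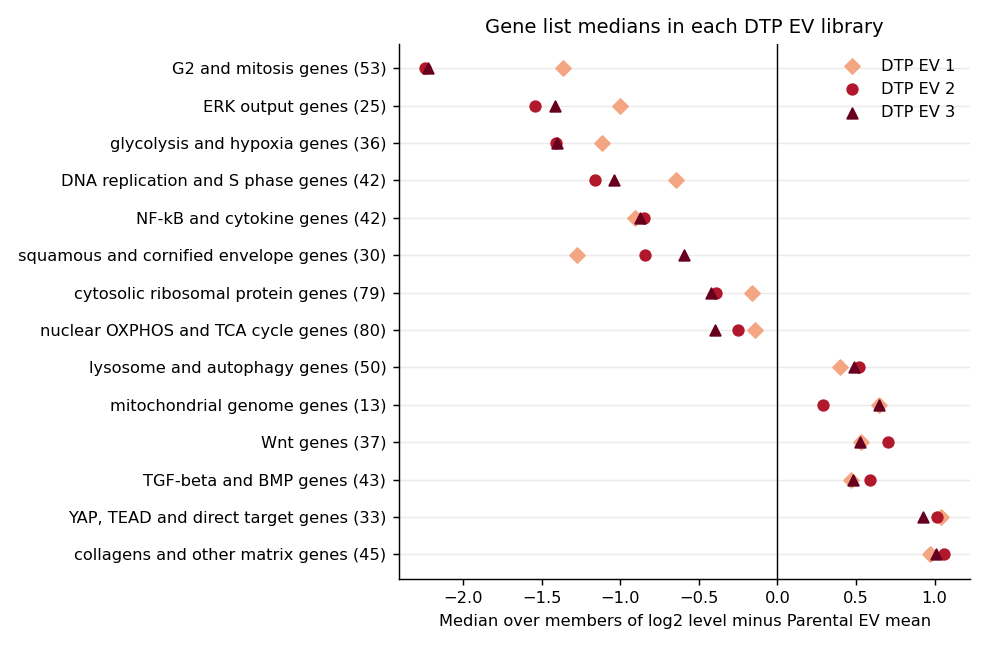
Median over the tested members of a list (number in brackets) of the log2 level in 1 DTP EV library minus the Parental EV mean, with 1 symbol per DTP EV library. DTP EV 1 (diamonds) lies nearer to 0 than DTP EV 2 and 3 for mitotic, ERK output, glycolytic and S phase genes and near them for NF-kB, Wnt, YAP and matrix genes.

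Single genes were far from their replicates in DTP EV 1. OLFM4, a secreted glycoprotein of epithelial progenitors, had 904, 10.5 and 13.6 scaled counts in DTP EV 1 to 3, against 8815, 8588 and 8689 in Parental EV 1 to 3. SPP1, osteopontin, had 15840.3, 784 and 579.5 scaled counts in DTP EV 1 to 3, against 15619, 15652 and 15848 in Parental EV 1 to 3, so that DTP EV 1 stood within the Parental EV range. PARM1, a prostate and androgen-regulated mucin-like protein, had 3847, 589.7 and 629 scaled counts in DTP EV 1 to 3, against 3120.3, 3132 and 3136 in Parental EV 1 to 3. These 3 were high in DTP EV 1 alone among the DTP EV libraries. CEACAM6 had 3435, 16805 and 14880.5 scaled counts in DTP EV 1 to 3, against 2974, 2864 and 2978 in Parental EV 1 to 3, and CEACAM5, its relative among carcinoembryonic adhesion molecules, had 1302, 4890.1 and 4495 scaled counts in DTP EV 1 to 3, against 1036, 1028 and 986 in Parental EV 1 to 3. KRT4, a keratin of stratified mucosa, had 621, 2697 and 2799.9 scaled counts in DTP EV 1 to 3, against 237, 222 and 219.8 in Parental EV 1 to 3. For these 3, DTP EV 1 lay nearer to Parental EV than to its replicates. The change of SPP1 was not called with all 6 libraries (log2 -3.02, SE 1.13, adjusted p = 0.052) and was -4.54 without DTP EV 1 (adjusted p = 1.5e-08), and that of PARM1 was -1.47 (adjusted p = 0.091) and -2.36 (adjusted p = 1.35e-08). For CEACAM6 the change was 1.69 with all libraries and 2.43 without DTP EV 1, for CEACAM5 1.59 and 2.20, for KRT4 2.88 and 3.60, and for OLFM4 -7.35 and -9.39. OLFM4 changed by -6.24 without DTP EV 2 and -6.42 without DTP EV 3. Without any 1 of the other 5 libraries the calls of CEACAM6 (adjusted p = 0.0771 to 0.11) and CEACAM5 (0.0554 to 0.077) were lost.

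The same 2 states were measured in DTP OC and Parental OC libraries, which share no library with the EV groups. There, 9354 of 14272 genes were called (65.5%), 4719 higher (33.1%) and 4635 lower (32.5%) in DTP OC. Of 8067 EV calls tested in OC, 6618 were called with the same sign and 107 with the other, which is 82% of the EV calls and 71.8% of the OC calls. Of the 2465 genes called in EV at 2-fold or more and tested in OC, 2283 were called in OC with the same sign and 10 with the other. The difference of the DTP against Parental change, OC minus EV, was called for 1629 of 14582 genes (11.2%), 915 of them higher and 714 lower. Without DTP EV 1 the same difference was called for 4402 genes, 2408 higher and 1994 lower. CTGF changed by 5.35 in OC and 3.80 in EV, and the difference of 1.54 was called (adjusted p = 0.00659). CYR61 changed by 3.19 in OC and 2.06 in EV (difference 1.13, adjusted p = 0.000142). TNFAIP3 changed by 0.02 in OC and -1.43 in EV (difference 1.45, adjusted p = 3.44e-06). These 3 differences were all positive: CTGF and CYR61 rose further in OC, and the fall of TNFAIP3 in EV was not seen there. For EGR1 (-6.18 in OC, -6.48 in EV) and THBS1 (4.37 in OC, 4.57 in EV) the difference was not called (adjusted p = 0.6 and 0.183). The YAP and TEAD list had 27 of 33 members called higher in OC, against 26 in EV. The G2 and mitosis list had 52 of 53 lower in OC with a median of -1.05, against 53 and -1.93 in EV. The interferon list had 28 of 42 higher in OC, against 10 in EV and 19 in EV without DTP EV 1. The NF-kB list had a median of -0.33 in OC, against -0.86 in EV. By gene, OC minus EV was called higher for 29 G2 and mitosis, 24 NF-kB, 13 interferon and 13 YAP and TEAD members. It was called lower for 0, 0, 0 and 2 of them. Of 23 immediate early and AP-1 genes, it was called higher for 12 and lower for 0. Of 25 ERK output genes, it was called higher for 7 and lower for 0. The immediate early median was -0.425 in OC, against -0.776 in EV, and the ERK output median -0.62, against -1.33. Other lists also differed between EV and OC. Counts and medians of whole lists were not tested as a difference. Of the 13 mitochondrial genome genes, 1 was called higher and 1 lower in OC, against 7 and 0 in EV. The alveolar list had a median of 0.00 in OC and 0.62 in EV, and the tight junction list 6 higher and 12 lower in OC, against 9 and 6 in EV.

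**Figure D5:**
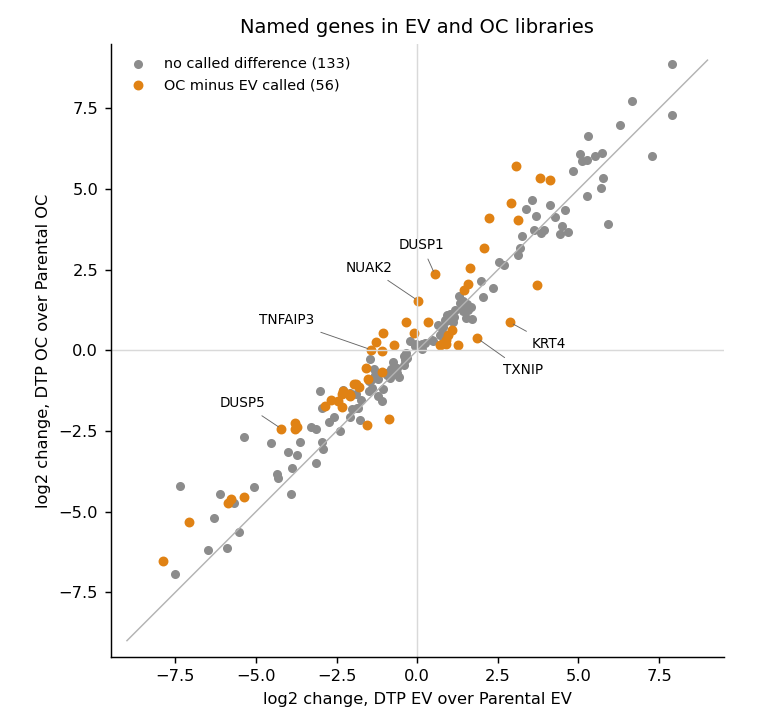
Each point is a gene named in the text, with its log2 change DTP EV over Parental EV (x) and DTP OC over Parental OC (y) and a line of equality. Genes whose OC minus EV difference was called are orange, and among them NUAK2, DUSP1 and TNFAIP3 lie well above the line and KRT4 and TXNIP below it.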

How the data were processed

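RNA of 3 DTP EV, 3 Parental EV, 3 DTP OC and 3 Parental OC libraries was sequenced after rRNA removal with directional libraries, per the labels' protocols. Per the submitters' processing notes, FastQC, STAR, featureCounts, MultiQC and hg19 were used, with versions and the strand setting not given in the sources used here. The authors deposited log10 values. Undoing the log10 and subtracting 1 gave a whole number in 100.0% of cells (within 1e-06), so the deposited values are log10(count + 1). Left out were 2557 entries without a gene name and the 60 lines of 15 repeated symbols, which left 19932 genes. The 6 columns of another sheet that could not be tied to samples were not used.

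Because the deposited unit is log10, limma 3.58.1 (R 4.3.3) with a mean-variance trend was run on log2(TMM-scaled count + 1) of the 6 EV libraries, with genes kept that reached 10 counts in 3 or more libraries, and p-values adjusted by Benjamini-Hochberg over all 14158. The OC libraries were fitted alike, and the OC minus EV difference as an interaction over 12 libraries. The code was tested on simulated data. Totals of 30075330 to 40152649 counts per library set the precision. PCR duplicates are not removed by any step named in the sources.

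The members and the lists were chosen with earlier results of these data known. Genes were named by a rule: the 10 widest rises and falls with means of at least 1000 and 20 in the higher and lower group, the 6 largest gains and losses in scaled counts, up to 3 called members and key members of each list, the 6 genes most above and below their replicates in DTP EV 1, the 6 strongest OC minus EV differences and a fixed set of 12. Of these, a selection is printed, and some genes of the rule and the lists are not reported here. NKX2-1, a lineage marker, and SNAI1 and ZEB2, chosen after their values were seen, are outside the rule. Alternatives were other scalings, pseudocounts, filters, variance models, library sets, a replicate block and leaving out each library. Promoters are RefSeq's, GRCh38.p14, matched by symbol.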

Additional observations from a re-analysis of the deposited data

Results flagged for a closer look

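Of the 189 genes named in the report, 56 had a DTP against Parental change that differed between the OC and EV libraries by the interaction test in limma, 44 with a higher and 12 with a lower change in OC. Over all genes tested the share was 11.2%, and 6 of the 56 (TNFAIP3, GBP1, GBP2, PLK2, NUAK2 and DUSP1) were named because this difference was among the strongest. Each value here is the log2 change of DTP OC over Parental OC minus that of DTP EV over Parental EV, and adjusted p-values ran from 3.44e-06 to 0.0465. All 12 libraries entered the test, DTP EV 1 among them. Among growth factor, immediate early and RTK genes, the change was higher in OC for DUSP5 (1.77), JUNB (0.71), FOSL2 (0.55), AXL (1.87), IGFBP2 (0.64), DUSP1 (1.81) and MYC (0.64) and lower in OC for ERBB2 (-0.69) and TXNIP (-1.49). Among cell cycle and repair genes, the change was higher in OC for TOP2A (1.13), CDK1 (1.14), AURKA (0.94), CDT1 (0.95), BRCA1 (0.65) and POLQ (0.87). Among YAP targets, TGF-beta ligands and mesenchymal genes, the change was higher in OC for CTGF (1.54), CYR61 (1.13), AMOTL2 (0.47), NUAK2 (1.52), VIM (1.17), SNAI2 (1.66), SNAI1 (1.36), ZEB2 (2.63) and PLAU (0.90) and lower in OC for INHBB (-1.70). Among metabolic, stress and transport genes, the change was higher in OC for SQSTM1 (1.22), ABCA1 (0.56), ACSL4 (0.87), DDIT3 (1.53), GDF15 (1.54), PLK2 (0.89) and STC1 (1.16) and lower in OC for MT-ND1 (-0.60), MT-CO3 (-0.55), LSS (-0.48), ALDH1A3 (-0.46), ABCC2 (-0.74), HSPA8 (-0.57) and HSPA1A (-1.10). Among inflammatory and interferon genes, the change was higher in OC for IL1A (1.13), CCL20 (0.82), TNFAIP3 (1.45), ICAM1 (0.43), GBP1 (1.60) and GBP2 (1.06). Among epithelial and lineage genes, the change was higher in OC for SERPINB4 (1.36), S100A8 (1.73), PI3 (1.37) and ABCA3 (0.41) and lower in OC for NAPSA (-1.24) and KRT4 (-2.02). Among Wnt, Notch and clock genes, the change was higher in OC for DKK1 (0.92), JAG1 (1.03), HES1 (0.66), NR1D1 (1.06) and PER1 (0.76). A positive value at a gene that fell in EV means a smaller fall, or a rise, in OC. For example, CDK1 changed by -1.53 in OC and -2.67 in EV, and ZEB2 by 5.72 in OC and 3.07 in EV. For SQSTM1, GBP1 and DDIT3 the difference exceeded the size of the fall in EV. Of the 181 called genes named in the report, 172 were called with the same sign in OC and 4 with the other sign. No reason for any of these differences was tested.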

How the results depend on the processing

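The count of 8131 genes called in DTP EV against Parental EV ranged from 7617 to 9190 over the other normalizations, pseudocounts, filters, fits and weights, and from 6491 to 9602 when each replicate was left out in turn, the highest without DTP EV 1. Called higher were 4022, and 3300 to 4716 in those leave-outs, and called lower 4109, and 3170 to 4886. A minimum change of 2-fold left 2529, 1327 higher and 1202 lower. In OC the count of 9354 ranged from 8521 to 9293 over leave-outs. The OC minus EV difference was called for 1629 genes with all libraries, 1284 without the trend and 4402 (2408 higher and 1994 lower) without DTP EV 1. Of the values of 189 named genes over 18 alternatives, 3359 kept their direction and side of the threshold, 27 lost the call, 11 gained it and 5 changed sign, of genes not called with all 6 libraries. The change of CDKN1A was 0.10 with array quality weights and ranged from -0.208 to 0.172 over the leave-outs, highest without DTP EV 1. That of NUAK2 ranged from -0.059 to 0.121 and that of MYC from -0.206 to 0.057, lowest for NUAK2 and highest for MYC without DTP EV 2. The cause was not tested. No pairing by replicate number was seen. Deviations from the group means of same-numbered EV libraries correlated at -0.011, -0.007 and -0.003, and those of OC libraries at 0.031, 0.023 and -0.006. With 3 libraries per group, these values cannot show whether same-numbered libraries were handled together. With the replicate block, 7617 genes were called in EV (3769 higher, 3848 lower) and 9271 in OC (4675 higher, 4596 lower). Scaling by library total moved the median change of all genes to 0.03. Genes near 0 in one group are limited by depth, and their fitted changes depend on the pseudocount. Some of these genes passed the filter through a single group, so they could be called higher in that group only.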
